A study of Rattus norvegicus with 6 samples.

Results

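Neuropeptide and granin genes were followed in cultured rat spinal cord ependymal stem cells with and without glutamate. The group holds 8 of the 32883 gene rows counted: Scg2 (ENSRNOG00000015055), Gal (ENSRNOG00000015156), Calca (ENSRNOG00000011130), Vgf (ENSRNOG00000001416), Npy (ENSRNOG00000009768), Penk (ENSRNOG00000008943), Sst (ENSRNOG00000001837) and Pcsk1 (ENSRNOG00000011107). It was chosen by kind of gene and with the counts of these same glutamate and control libraries in view, so all differences between the groups are given as a description without a test. The deposited tables carry gene IDs and no names. The names of the 8 IDs came with the member list and could not be checked in the RefSeq gene table, which pairs 0 of the 32883 IDs with a symbol.

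Bulk RNA sequencing covered 3 control libraries, from cells in neurobasal medium, and 3 libraries from cells whose neurobasal medium also held 500 uM glutamate, all on day 2. All 6 libraries carry the cell type label of ependymal stem cells from rat spinal cord, the cells around the central canal that can act as neural stem cells. The labels give no strain, age or genotype, and do not say whether replicates were separate animals or cultures, so spreads may be technical. Libraries held 166567977 to 181352365 counts, and levels are given in CPM, the standard unit of counts normalised to library size, here with TMM factors. Control replicate 1 stood farthest from its own group, with a chi-square per gene of 88.3 and 160.3 against the other controls, compared with 32.0 between those and 19.0 to 45.4 among glutamate libraries. Markers of ependymal cells, neurons and other cell types were not analysed here, since their symbols could not be tied to IDs, and their part in any result below was not tested.

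Neuropeptides are made as larger precursors, enter the regulated secretory pathway and are stored in dense-core vesicles. Granins such as secretogranin II (Scg2) and VGF are acidic proteins of those vesicles, which are themselves cut into active peptides. Prohormone convertase 1 (Pcsk1) cuts precursors at basic residues. These genes are best known from neurons and endocrine cells, and several of them are textbook targets of calcium and cyclic AMP signalling through the transcription factor CREB, which binds the cyclic AMP response element (CRE).

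The promoter letters are shown for the 4 members with the largest differences and, beside them, for Npy, which had few reads. Sst, with no read in any library, is left out of the letters. It also holds a full CRE, which lies after the annotated start, outside the stretch shown. RefSeq windows on build GRCr8, which differs from the rn6 build behind the counts, matched 6 of the 8 members by symbol: Scg2, Gal, Calca, Vgf, Npy and Sst. Penk and Pcsk1 had no entry. Each line gives the 130 bases before the annotated start, 5′ to 3′ on the gene's own strand, with capitals for a full CRE (TGACGTCA) or its core (TGACG), searched on both strands. The windows lie at chr9:88256867-88256996, minus strand for Scg2, chr1:210084573-210084702, minus strand for Gal, chr1:178317530-178317659, minus strand for Calca, chr12:25277021-25277150, minus strand for Vgf and chr4:80211981-80212110, plus strand for Npy.
Scg2: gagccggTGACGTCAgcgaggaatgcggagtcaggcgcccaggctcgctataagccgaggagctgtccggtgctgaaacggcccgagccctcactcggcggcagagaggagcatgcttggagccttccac
Gal: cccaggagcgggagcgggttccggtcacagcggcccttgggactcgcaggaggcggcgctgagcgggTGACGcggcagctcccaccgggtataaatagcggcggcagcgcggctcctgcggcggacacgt
Calca: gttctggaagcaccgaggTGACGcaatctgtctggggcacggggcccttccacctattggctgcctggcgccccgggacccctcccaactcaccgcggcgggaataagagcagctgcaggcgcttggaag
Vgf: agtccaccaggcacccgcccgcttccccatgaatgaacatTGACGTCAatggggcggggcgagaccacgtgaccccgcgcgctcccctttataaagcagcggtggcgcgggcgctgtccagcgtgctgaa
Npy: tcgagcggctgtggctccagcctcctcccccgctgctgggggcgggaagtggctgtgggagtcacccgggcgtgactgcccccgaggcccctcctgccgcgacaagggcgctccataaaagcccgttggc

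Scg2 and Vgf each held a full CRE, at bases -123 to -116 and -90 to -83 counted back from the annotated start. Gal and Calca held the core alone, at -63 to -59 and -112 to -108, with the letters TGACG on the coding strand in both. A full CRE reads the same on both strands and contains the core on each, so its matches overlap. Npy held neither. In Sst, a textbook CRE gene, the full CRE fell at bases 3 to 10 after the start that RefSeq annotates, so its place before or after the start depends on that annotation. Over the 33469 windows of 300 bases in the RefSeq table, 1.83% held a full CRE and 21.2% held the core, against 3 and 5 of the 6 members with a window. The AP-1 motif TGANTCA occurred in 7.33% of all windows and in none of these 6. With a share that low and so few windows, its absence tells little, and nothing is read from it. Several members are textbook CREB targets, so the CRE counts partly follow from the choice of genes, and nothing is read from them. A match describes the letters only, and no binding was measured in these libraries.

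**Figure D1:**
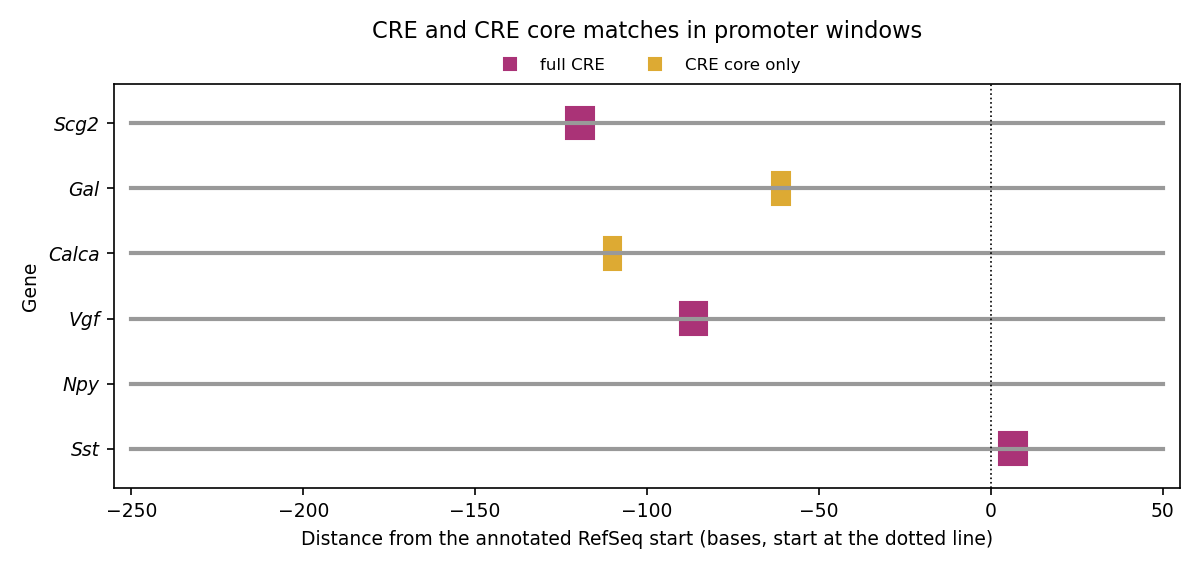
Each line is the RefSeq window of 1 gene, from 250 bases before to 50 bases after its annotated start, with distance from the start on the x axis. Boxes mark a full CRE (Scg2, Vgf, Sst) or the core alone (Gal, Calca), and the Npy line carries no box.

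Of the 8 genes, 4 had at least 997 reads in every glutamate library and were many times lower without glutamate: the granins Scg2 and Vgf and the neuropeptide genes Gal and Calca. Mean CPM was 276-fold higher for Gal, 58.5-fold for Scg2, 35.5-fold for Calca and 11.2-fold for Vgf. The other 4 genes did not share this pattern, although the group is named for a response to glutamate. Npy had 20 reads in all, Penk and Pcsk1 had overlapping groups, and Sst had no read in any library. Every glutamate library lay above every control in 5 of the 8, Npy included. Npy and Sst were filtered out before genes were compared, and of the 6 members tested 4 had this separation. Among all 15919 genes tested, 22.8% had every glutamate library above every control and 0.597% were 8-fold or more higher in mean CPM. Nothing is read from these shares for the members, which were picked on this contrast. In bulk RNA a change in the number of cells that express a gene and a change in the RNA per cell cannot be told apart.

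**Figure D2:**
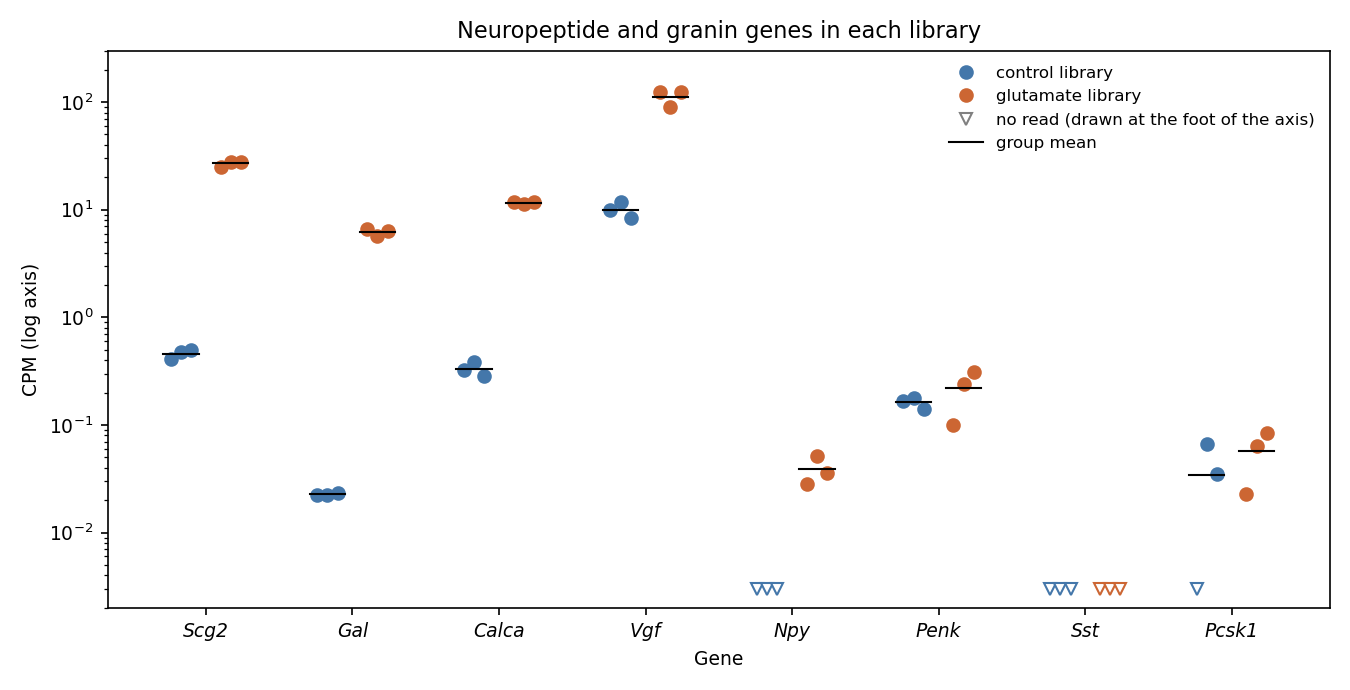
CPM on a log axis for the 8 genes, 1 point per library and a bar for the mean of each group, with triangles at the foot of the axis for libraries with no read. The group means of Scg2, Gal, Calca and Vgf differ by more than 10-fold with no overlap of points, the Penk and Pcsk1 points overlap, and Sst has triangles only.

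Scg2 encodes secretogranin II, a vesicle granin and the precursor of secretoneurin. It had 74, 86 and 84 reads in control replicates 1 to 3 and 4468, 4815 and 4658 reads in glutamate replicates 1 to 3. In CPM these are 0.411, 0.479 and 0.494 in control and 25.2, 27.8 and 28.0 with glutamate. All 3 glutamate libraries lay far above all 3 controls, and the libraries of each group lay close together. The means were 0.461 ± 0.044 and 27.0 ± 1.6 CPM (SD, n = 3 each), a log2 difference of 5.87 (SE 0.09). Its promoter carried the full CRE shown above.

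Vgf encodes a granin-like precursor that is cut into several peptides, among them TLQP-21, and is known as a gene induced by nerve growth factor. It had 1804, 2107 and 1423 reads in the controls, or 10.02, 11.7 and 8.38 CPM. With glutamate it had 21936, 15658 and 20460 reads, or 124, 90.4 and 123 CPM. The groups did not overlap, and glutamate replicate 2 was the lowest of its group. The means were 10.04 ± 1.7 and 112 ± 19 CPM (SD, n = 3 each), a log2 difference of 3.48 (SE 0.20). Its control libraries were well above the detection limit, so unlike Gal its ratio does not rest on a handful of control reads.

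Gal encodes the precursor of galanin, a neuropeptide that acts on galanin receptors and is known to be raised in injured neurons. It had 4 reads in each control library and 1180, 997 and 1064 reads with glutamate. These are 0.0222, 0.0223 and 0.0235 CPM in control and 6.65, 5.76 and 6.39 CPM with glutamate. Gal was near absence in every control library and had at least 997 reads in every glutamate library. The means were 0.0227 ± 0.00075 and 6.27 ± 0.46 CPM (SD, n = 3 each), a log2 difference of 8.11 (SE 0.07). This SE understates the error, because 12 control reads allow a fold of 158 to 536 (exact 95% interval, counting error only), and equal counts of 4 are closer together than counting alone would make them on average.

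Calca encodes both calcitonin and alpha-CGRP, a vasodilator peptide of sensory neurons, by alternative splicing. It had 58, 69 and 48 reads in control and 2114, 1941 and 1990 with glutamate. The CPM values were 0.322, 0.384 and 0.283 in control and 11.9, 11.2 and 11.9 with glutamate. Again no library of 1 group reached the other. The means were 0.330 ± 0.051 and 11.7 ± 0.42 CPM (SD, n = 3 each), a log2 difference of 5.15 (SE 0.13). Counts per gene do not separate the 2 splice products, and reads shared with the related gene Calcb are uncertain because the treatment of shared reads is not given in the sources used here.

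Npy encodes neuropeptide Y, made by many inhibitory and sympathetic neurons. It had no read in any control library and 5, 9 and 6 reads with glutamate, or 0.0282, 0.0520 and 0.0360 CPM. The 3 glutamate libraries were all above the controls, but the gene stayed close to the limit of detection. Set against the 3 reads that a count of 0 allows over the control group, or 0.00567 CPM, its level was at least 6.83-fold higher with glutamate if the 20 glutamate reads are taken as exact. With the counting error of both groups the lower bound was 5.06-fold (exact 95% interval, counting error only).

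Penk encodes proenkephalin, the precursor of the enkephalin opioid peptides. It had 30, 32 and 24 reads in control, or 0.167, 0.178 and 0.141 CPM. With glutamate it had 18, 42 and 52 reads, or 0.101, 0.242 and 0.312 CPM. Glutamate replicate 1 was below every control and the other glutamate libraries were above every control, so the groups overlapped. The means were 0.162 ± 0.019 and 0.219 ± 0.11 CPM (SD, n = 3 each), a ratio of 1.35 and a log2 difference of 0.43 (SE 0.42), about the size of its error. Without glutamate replicate 1 the log2 difference was 0.78, and without glutamate replicate 3 it was 0.08.

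Pcsk1, the processing enzyme of the group, had 0, 12 and 6 reads in control and 4, 11 and 14 with glutamate. These are 0, 0.0668 and 0.0353 CPM against 0.0226, 0.0635 and 0.0841 CPM. Only glutamate replicate 3 was above the highest control. The log2 difference of 0.74 (SE 0.94) was smaller than its error and ran from 0.15 without control replicate 1 to 1.69 without control replicate 2. No difference between groups beyond the spread between libraries was seen for Pcsk1. Counting error alone allows a ratio of 0.886 to 3.15 (exact 95% interval).

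Sst encodes somatostatin, an inhibitory neuropeptide. It had 0 reads in each of the 6 libraries, which allows at most 0.00580 CPM in the glutamate group and 0.00287 CPM over all libraries. No difference could be computed for Sst.

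Low counts were filtered before genes were compared, and 6 of the 8 members passed. Npy and Sst did not. Gal passed through its glutamate libraries alone, since no control library had 10 reads, so it had to differ. Pcsk1 passed with 10 reads or more in 1 control and 2 glutamate libraries, while Scg2, Calca, Vgf and Penk had that many in all 6. Of the 6 that passed, 4 were 8-fold or more higher with glutamate and the same 4 had every glutamate library above every control. Over all genes tested the shares were 0.597% and 22.8%, and nothing is read from them for members picked on this contrast. By edgeR's quasi-likelihood test 14.1% of the genes tested were called as rises (Benjamini-Hochberg adjusted p below 0.05). That is another measure, and no member calls are given for it. The median log2 difference was 4.32 over the 6 members with reads in both groups, against -0.01 over all genes tested. With Npy added at its bound of 6.83-fold the members' median was 3.48. Sst, with no read, is in neither median. The value of 4.32 lies between Vgf at 3.48 and Calca at 5.15, while Penk and Pcsk1 had 0.43 and 0.74. It is not typical of the group, and nothing is read from either median for members picked on this contrast.

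By ratio of mean CPM among the 15919 genes, Gal came at rank 8, Scg2 at 11, Calca at 22 and Vgf at 65. The 6 genes with no control read were ranked first. Pcsk1 came at 1212 and Penk at 2375. The members were picked on this contrast, and Gal passed the filter through its glutamate libraries alone. High ranks therefore follow from the choice of genes, and nothing is read from them.

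**Figure D3:**
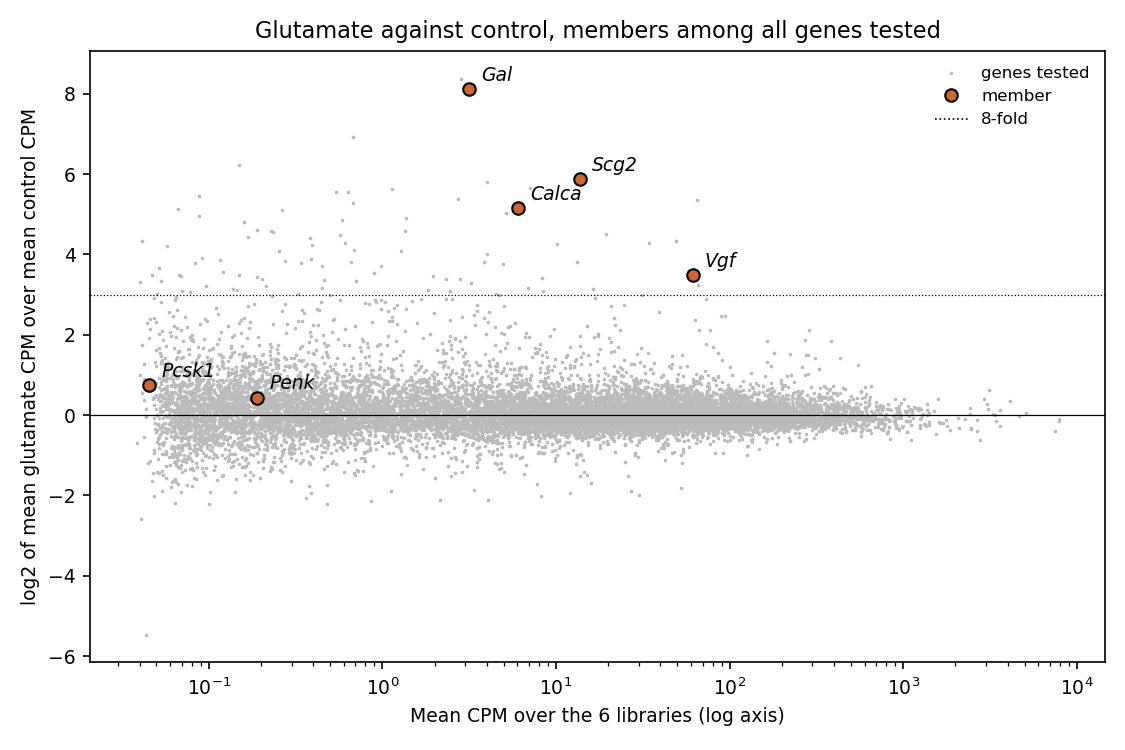
Each grey point is 1 of the genes tested that had reads in both groups, with its mean CPM on a log axis and the log2 ratio of mean glutamate CPM to mean control CPM. Gal, Scg2, Calca and Vgf lie above the dotted 8-fold line, and Penk and Pcsk1 lie in the cloud of weakly expressed genes near 0.

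Within a group the members did not vary alike. Vgf spread most among the 4 abundant genes with glutamate, with a coefficient of variation (CV, the SD as percent of the mean) of 16.9%, where counting alone gives 0.719%. Among the 3264 tested genes within 2-fold of its glutamate level, the median CV was 2.97% and 99.7% had a lower CV than Vgf. Calca had a CV of 3.59% with glutamate, against a median of 4.97% among genes at its level. The CVs of Scg2 and Gal with glutamate were 5.77% and 7.35%, against medians of 3.90% and 6.35%. Vgf also spread more than most genes at its level in control libraries, with a CV of 16.7% against a median of 8.52%.

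The library that was lowest differed between genes. Glutamate replicate 2 was lowest for Vgf, Gal and Calca, with the highest library 1.37, 1.16 and 1.07 times the lowest. For Calca the glutamate CV was 3.59%, where counting alone gives 2.23%, so its order there is not clearly beyond counting error. For Scg2 and Penk, glutamate replicate 1 was lowest, with ratios of 1.11 and 3.08. Among the controls, replicate 3 was lowest for Calca, Vgf and Penk and highest for Scg2 and Gal. Gal had 4 reads in each control, so its order there follows library size alone. Control CVs of Scg2, Calca and Penk were 9.58%, 15.5% and 11.6%, where counting alone gives 11.1%, 13.1% and 18.7%. Their order among controls cannot be told apart from counting error. For Vgf the control CV was 16.7%, where counting alone gives 2.37%. Leaving out control replicate 1, the control that stood apart, changed the log2 difference of none of Scg2, Gal, Calca and Vgf by more than their spread between libraries.

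**Figure D4:**
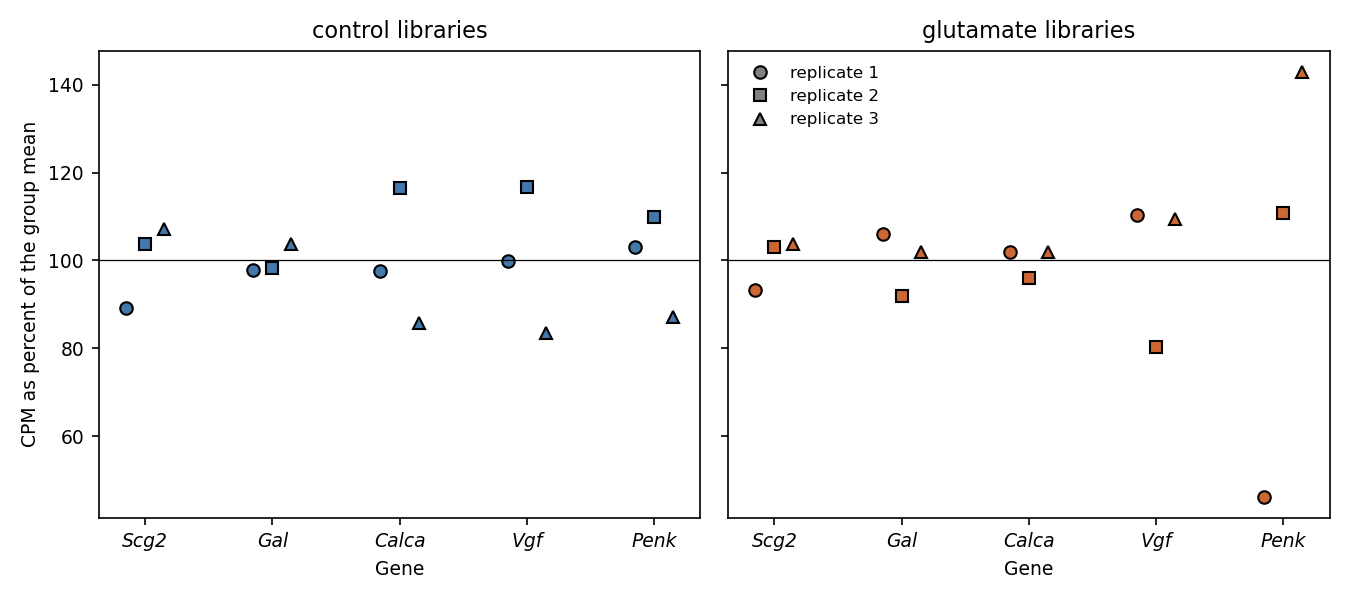
CPM of each library as percent of its group mean for 5 genes, with control libraries on the left, glutamate libraries on the right and 1 symbol per replicate number. Penk and then Vgf spread most with glutamate, and Vgf is lowest in glutamate replicate 2 while Scg2 is lowest in glutamate replicate 1.

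Together Scg2, Gal, Calca and Vgf took 1940, 2266 and 1559 reads in control libraries and 29698, 23411 and 28172 with glutamate. Their summed level was 10.8, 12.6 and 9.18 CPM in control and 167, 135 and 169 CPM with glutamate. The makeup of this sum differed between the groups. Vgf gave 93.0%, 93.0% and 91.3% of it in control and 73.9%, 66.9% and 72.6% with glutamate, with no overlap. These are shares of reads, which also depend on transcript length, and they differ because the other 3 genes had larger ratios.

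Among 12067 genes that are not members and had a mean of at least 1 CPM, the nearest in pattern to the mean profile of the 8 genes was ENSRNOG00000010210. Its distance was 0.25, measured in log2 CPM over the 6 libraries after centring each gene on its mean. It had 0.991 ± 0.10 CPM in control and 8.04 ± 0.64 CPM with glutamate (SD, n = 3 each). ENSRNOG00000033192 followed at a distance of 0.38, with 0.379 ± 0.076 CPM in control and 3.28 ± 0.29 CPM with glutamate (SD, n = 3 each). The mean profile includes Sst, which had no read, Npy, which had few, and Penk and Pcsk1, whose differences were small and unsettled. These members lower its difference between groups, and both neighbours had smaller ratios, 8.12 and 8.66, than Scg2, Gal, Calca or Vgf. The tables do not name these IDs.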

How the data were processed

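Bulk RNA from rat spinal cord ependymal stem cells was sequenced in 3 control and 3 glutamate libraries made with a directional kit, according to the labels. The authors deposited raw read counts per Ensembl gene ID for each library, per the file headers. Per the submitters' processing notes, featureCounts 2.0.1, SAMtools, STAR 2.7.8a and Trim Galore 0.6.5 were used with build rn6. The sources used here do not give the annotation release or strand setting, so overlapping and near-identical genes are uncertain. Groups were taken from the treatment label.

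Counts were scaled by TMM in edgeR 4.0.16 (R 4.3.3). The filterByExpr function kept 15919 genes (minimum count 10, minimum total 15). The background of calls came from its quasi-likelihood test with Benjamini-Hochberg adjustment. That test was also run on simulated data, with the same dispersion (spread beyond counting error) for every gene and no library set apart. Those settings differ from the real libraries, so the simulated run does not vouch for the share called. Members were described without a test. The SE of a log2 difference comes from the SDs of both groups. Intervals are exact at 95% (SciPy 1.17.1) and, like the limit of 3 counts for 0 reads, cover counting error only. The distance in pattern used a prior count of 2. Depth was high, so replicate spread and not counting set the error of Vgf.

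The members and lists were chosen with earlier results of these data known. Named genes were all 8 members and the nearest genes in pattern (at most 2 IDs). The 14 lists (prohormone processing, granins, granule release, other peptides, receptors, regulators, and markers of 8 cell types) hold 183 genes, and apart from the members none could be paired with an ID, so no list was evaluated. Precursor cleavage sites were not analysed here. Replicate numbers are shared between groups. Deviations of libraries with the same number correlated at 0.101, -0.024 and 0.135, which does not exclude pairing. No label states a shared origin, so the main fit did not take the numbers as pairs. Alternatives were RLE factors, total counts, DESeq2 1.42.0, 2 other filters, a replicate block and leaving out each library.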

Additional observations from a re-analysis of the deposited data

How the results depend on the processing

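The log2 differences of Scg2, Gal, Calca and Vgf stayed positive in all 48 combinations of gene and alternative. Their ranges were 5.79 to 5.93, 8.07 to 8.18, 5.04 to 5.28 and 3.36 to 3.63. Groups that do not overlap fix this direction, so it is no sign of stability. Penk ran from 0.08 to 0.78 and Pcsk1 from 0.15 to 1.69, so neither size is settled. The median over the 6 members with reads in both groups was 4.20 to 4.45 with 1 library left out. Without glutamate replicate 1, 6 members in place of 5 had every glutamate library above every control, the addition being Penk. That replicate was the only glutamate library of Penk below the controls, so leaving it out fixed this outcome. Fewer libraries are also easier to separate, and the share over all genes was not computed for this setting. The background moved more: leaving out 1 library gave 2420 to 5584 called genes, of which 1397 to 2921 were rises, against 4413 and 2239. The cause was not tested. With the replicate block there were 4553 calls, 4108 of them shared, and the members' median was 4.31. The numbers share no stated origin, and 4 of 6 libraries correlated most with the library of the other group that carries the same number. With only the 250 bases before the start searched, 4 in place of 5 members held the CRE core, Sst being lost. The planned gene lists and cleavage sites were not run under any alternative. Few reads stand behind Npy, Sst and Pcsk1, with totals of 20, 0 and 47, and for Pcsk1 the spread between libraries adds to counting error.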
